A study of Mus musculus with 8 samples.

Results

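The genes described here encode the machinery that releases neurotransmitter from synaptic vesicles, measured in the hippocampus of mice given mild exercise, astaxanthin, both or neither. The list holds 39 genes chosen by function. For 38 of them a probe was matched by accession, and Syt5 had no match. A gene was followed through its brightest probe that was unsaturated on all 8 arrays, which 28 genes had. Of these, 22 have that probe in array column 70 or higher and 6 below it (Syt2, Syt4, Syt9, Syngr1, Sv2a and Rims3), an area where the SED arrays read differently. The other 10 (Snap25, Vamp2, Syt1, Syt11, Syn1, Syp, Cplx1, Cplx2, Rab3a and Nsf) were saturated on at least some arrays. In all, 27176 features were tested, each a gene or a transcript without a name, and 16071 carried a symbol.

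All mice were male C57BL/6J, obtained at 11 weeks of age, and all ate a powder diet with an additive at 0.5% of the food. ME mice had mild treadmill running with a placebo additive. AX mice stayed sedentary and their additive held 2% astaxanthin, a red carotenoid from the alga Haematococcus pluvialis. AX+ME mice had both treatments, and SED mice were sedentary on placebo. Each group of 8 mice is represented by 2 samples on a shared slide, replicate 1 in the dye Cy3 and replicate 2 in Cy5. Whether they came from different animals is not stated, so p-values measure only how these samples vary, which could be labelling or scanning alone. The series title asks about leptin made in the hippocampus and the joint effect of both treatments on neurogenesis and memory.

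A vesicle filled with transmitter docks at the active zone, a protein meshwork built on scaffolds such as bassoon, piccolo and the RIM proteins. Munc13 proteins then prime it by opening syntaxin, so that syntaxin, SNAP-25 and the vesicle's synaptobrevin (VAMP) can zip into a SNARE complex. Complexin holds that complex ready, synaptotagmin senses the calcium that enters with the action potential, and NSF with its adaptor SNAP takes the spent complexes apart. In the hippocampus these steps set release probability and short-term plasticity at the synapses used for spatial memory.

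Values are the intensity of the dye that carried the sample's RNA, divided by the 75th percentile of its array, which lay between 1420 and 2319. Between 63.2% and 76.2% of spots were well above background and 919 to 1474 were saturated. Markers fixed by list for excitatory neurons (8 of 8), inhibitory neurons (8 of 8) and astrocytes (6 of 6) were well above background on every array. The SED arrays stood apart in the scanner software's multiplicative detrending, which rescales spots by their position. At the spots of the 22 genes from column 70 on, the factor lay between 0.895 and 1.17 on the ME, AX and AX+ME arrays, against 0.865 to 1.12 on SED replicate 1 and 0.769 to 1.02 on SED replicate 2. At the 6 spots below column 70 it lay between 0.904 and 1.19 on the arrays of the treated groups, against 0.946 to 1.32 on SED replicate 1 and 0.983 to 1.96 on SED replicate 2. Differences from SED are therefore also given from signals before detrending for the genes described below whose direction or size turns on it. Each group also holds 1 column of the slide, so group and place on the slide cannot be told apart.

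**Figure D1:**
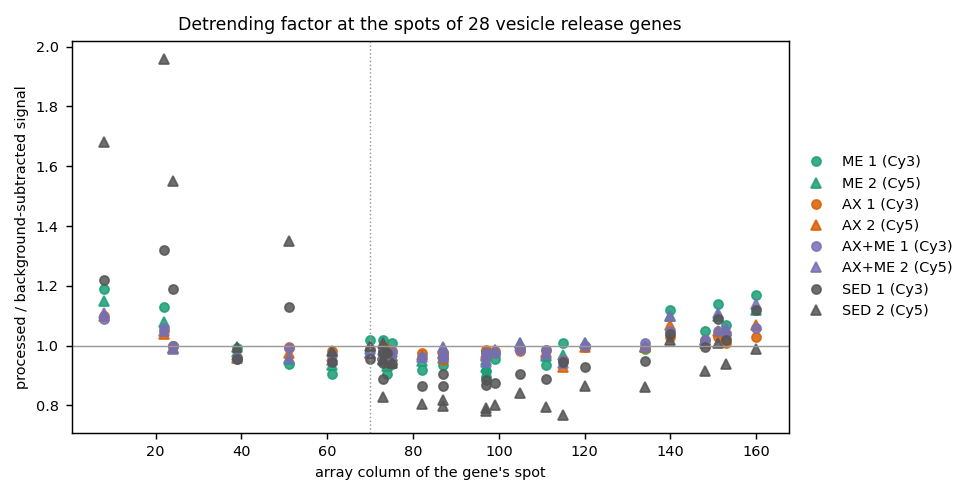
Ratio of processed to background-subtracted signal (y) at the spot of each of the 28 genes, by array column (x), with Cy3 samples as circles and Cy5 samples as triangles. The grey SED triangles run up to 1.96 left of the dotted line at column 70 and down to 0.769 right of it, while the ME, AX and AX+ME points stay between 0.895 and 1.19.

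Few vesicle release genes differed between groups. Unc13c was lower in AX and AX+ME than in SED samples. Syt2 was lower in AX+ME than in SED samples from the processed signal, by a log2 difference of -0.61. Before detrending that Syt2 difference was -0.19 and did not pass (limma adjusted p = 0.465). No gene of the set was higher past the threshold in any of the 8 comparisons, though with an intensity trend in limma's variance prior Syt3 was, in AX+ME against SED (limma adjusted p = 0.0367). Without SED replicate 2, the AX+ME differences of Syt3 and Syngr1 were 0.41 and 0.44. These rest on SED replicate 1, the lower SED sample for both genes. Over all genes 1.92% were called higher in ME, 2.16% in AX and 3.72% in AX+ME against SED. In ME against SED, limma called 0 of 28 genes at an adjusted p under 0.05, beside 3.00% of all genes tested (1.08% lower), and 7 of 28 (25.0%) had an unadjusted p under 0.05, beside 24.3% of all. In AX against SED it called 1 of 28, lower, beside 3.56% of all genes called and 1.40% called lower, and 6 of 28 (21.4%) passed unadjusted, beside 26.5%. In AX+ME against SED it called 2 of 28, both lower, beside 6.92% of all genes called and 3.19% called lower. There 13 of 28 (46.4%) passed unadjusted, 7 higher and 6 lower, beside 32.1% of all. The shares called in either direction lie near those across the array. A signal at least 25% higher in SED in both dyes was found for 1 gene against ME (Syt2, beside 5.16% of all genes), 1 against AX (Unc13c, 4.88%) and 2 against AX+ME (both, 5.43%), and one at least that much lower in SED for 0 genes in each (5.07%, 6.01% and 7.92% of all).

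The set as a whole moved little. The median log2 difference of the 28 genes was 0.016 in ME, 0.012 in AX and 0.12 in AX+ME against SED, where the medians of all genes were -0.05, -0.04 and -0.03. Before detrending, the medians of the set were -0.13, -0.07 and -0.0025, and those of all genes -0.15, -0.12 and -0.11. Of the 28 differences from SED, 13 in ME, 14 in AX and 18 in AX+ME kept their sign when the processed signals, the signals before detrending and signals centred within blocks of the array were compared. For the other genes the direction of the difference from SED turned with the version of the signal used. The median of all genes was itself lower before detrending, so a small negative difference there can still lie above that median.

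**Figure D2:**
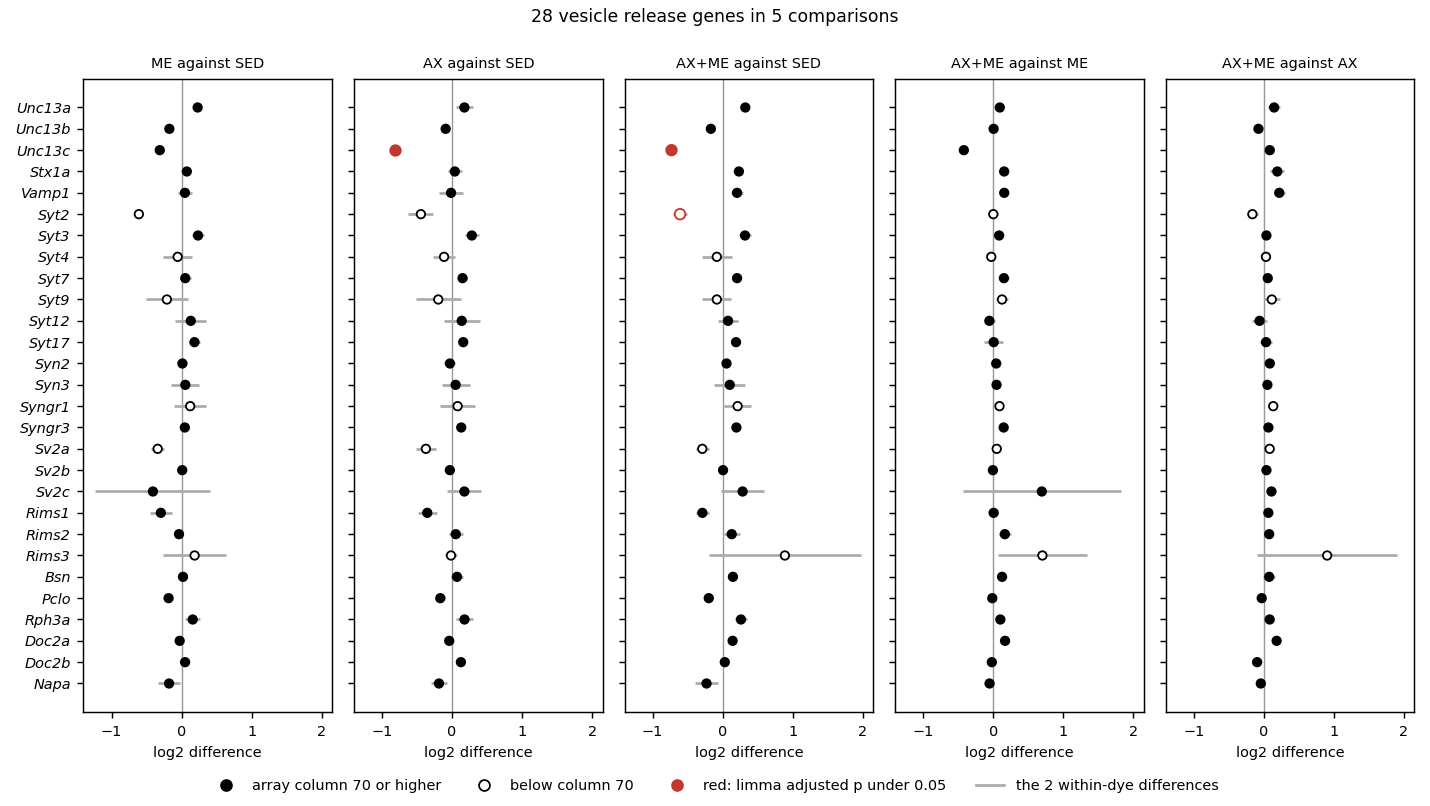
Log2 difference (x) of each of the 28 genes (y) in 5 comparisons, with the fitted value as a point and both within-dye differences joined by a grey line. Open points are genes with their spot below array column 70, and red marks a limma adjusted p under 0.05, which Unc13c reached against SED at -0.82 in AX and -0.73 in AX+ME.

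The fitted differences of the combined treatment from either treatment alone take no SED signal, though the SED samples enter the fit's estimate of spread. Here the genes mostly leaned upward by small amounts. In AX+ME against ME, 21 of 28 genes were higher with a median log2 difference of 0.067 (all genes 0.0096), and in AX+ME against AX, 22 of 28 were higher with a median of 0.071 (all genes 0.0083). The sign held across the same 3 versions of the signal for 24 and 27 of the 28 genes, with 18 and 21 of them higher. Both counts share the AX+ME samples. Limma called 0 of 28 genes in each, beside 0% of all genes, and 2 of 28 had an unadjusted p under 0.05 in each, beside 8.35% and 6.01% of all. With SED left out of the fit limma also called 0 of 28 in each (smallest adjusted p = 0.283 and 0.434). In AX+ME against ME, 1 gene, Unc13c, read at least 25% higher in ME in both dyes (0.589% of all genes), and 0 read that much higher in AX+ME (3.45%). In AX+ME against AX there were 0 in either direction (2.02% higher and 1.16% lower over all genes).

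The interaction asks whether running differed in its effect between the diets. Limma called 0 of 28 genes, beside 0.526% of all, and 5 of 28 (17.9%) had an unadjusted p under 0.05, beside 14.7% of all, with the smallest adjusted p at 0.198 for Unc13c. Running averaged over both diets gave 0 calls, beside 0.714% of all genes, and 6 genes with an unadjusted p under 0.05 (19.5% of all genes). Astaxanthin averaged over both activity levels gave 1 call, Unc13c, beside 0.828% of all genes. Restricted to array column 70 on, limma called 0 of 22 genes in all 8 comparisons. There 0% to 0.0169% of all genes were called, and the smallest adjusted p was 0.0507. An unadjusted p under 0.05 was met by 6 of the 22 in ME (21.8% of all genes), 5 in AX (24.8%) and 11 in AX+ME (32.5%) against SED, and by 3 in AX+ME against ME (13.6%) and 2 in AX+ME against AX (9.81%).

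Munc13 proteins prime docked vesicles for fusion, and 1 of the 3 Munc13 genes of the set, Unc13c, passed the test against SED while Unc13a and Unc13b did not. Unc13a encodes Munc13-1, the main isoform at excitatory hippocampal synapses, Unc13b encodes Munc13-2, and Unc13c encodes Munc13-3, known chiefly from the cerebellum. The stretches before their transcription starts are shown because these paralogues carry the one called difference of the set outside the low columns. Each is 250 bases upstream of a RefSeq start on build GRCm38.p6, written on the gene's strand, at chr8:71671758-71672007 on the minus strand for Unc13a, chr4:43058703-43058952 on the plus strand for Unc13b and chr9:73969038-73969287 on the minus strand for Unc13c. Capitals mark matches, on either strand, to the GC box GGGCGG or the antioxidant response core TGACNNNGC.
Unc13a: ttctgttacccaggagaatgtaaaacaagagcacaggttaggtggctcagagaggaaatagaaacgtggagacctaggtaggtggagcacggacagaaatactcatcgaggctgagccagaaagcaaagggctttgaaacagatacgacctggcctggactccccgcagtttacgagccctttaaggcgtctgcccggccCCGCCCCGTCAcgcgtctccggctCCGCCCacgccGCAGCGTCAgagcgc
Unc13b: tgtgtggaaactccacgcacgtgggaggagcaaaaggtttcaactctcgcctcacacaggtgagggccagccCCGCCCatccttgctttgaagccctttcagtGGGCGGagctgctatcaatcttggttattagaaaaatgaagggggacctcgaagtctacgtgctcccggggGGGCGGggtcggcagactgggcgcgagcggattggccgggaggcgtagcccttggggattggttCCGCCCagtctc
Unc13c: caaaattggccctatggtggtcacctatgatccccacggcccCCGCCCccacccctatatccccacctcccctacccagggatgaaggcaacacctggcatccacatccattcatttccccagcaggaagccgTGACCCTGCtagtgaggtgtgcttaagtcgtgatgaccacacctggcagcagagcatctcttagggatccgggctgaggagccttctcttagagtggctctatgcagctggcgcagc

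The Unc13c stretch held 1 GC box and 1 antioxidant response core, Unc13a held 2 of each, with 1 core overlapping a GC box, and Unc13b held 4 GC boxes and no core. The same letters occur widely: of 32851 upstream windows of this length, 32.7% held a GC box and 10.2% the core. Of 36 windows from the 27 genes of the list with an entry, 22 held a GC box and 4 the core, these of Syt9, Unc13a, Unc13c and Vamp1. A cyclic AMP response element, TGACGTCA, occurred in 1 of the 36, that of Syn1, against 1.55% of all windows, and TATAAA in 2, against 12.4%. A match is a run of letters and no measured site.

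Unc13c gave 0.389 and 0.378 in AX samples and 0.396 and 0.418 in AX+ME samples (replicates 1 and 2), against 0.654 and 0.698 in SED samples. ME samples read 0.521 and 0.569. The 4 samples with astaxanthin were the lowest, ME lay between, SED was the highest, and no 2 of these 3 sets overlapped. Against SED the log2 difference was -0.82 in AX (SE 0.063, limma adjusted p = 0.0161), -0.73 in AX+ME (SE 0.063, limma adjusted p = 0.0173) and -0.31 in ME (limma adjusted p = 0.0816), so AX samples held 0.568 and AX+ME samples 0.603 of the SED signal. Within Cy3 and within Cy5 the differences were -0.75 and -0.88 in AX and -0.72 and -0.74 in AX+ME. Between AX+ME and ME the difference was -0.42 (95% interval -0.59 to -0.25), which did not pass (limma adjusted p = 0.355), and between AX+ME and AX it was 0.09 (interval -0.08 to 0.25). Astaxanthin averaged over activity gave -0.62 (limma adjusted p = 0.0373), whereas running averaged over diets gave -0.11 (limma adjusted p = 0.269).

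The Unc13c spot lies in column 75, where the detrending factor was 0.981 and 0.967 in AX, 0.979 and 0.967 in AX+ME, and 0.939 and 0.941 in SED. Before detrending its differences from SED were -0.90 in AX and -0.81 in AX+ME (limma adjusted p = 0.00997 and 0.0114), and centred within blocks -0.73 and -0.67 (0.0405 and 0.0394). Of all 27176 genes, 2495 and 4327 were called before detrending, and 609 and 1105 centred within blocks. Among genes from column 70 on alone, with fewer genes and another estimate of spread, the same differences had adjusted p-values of 0.0834 and 0.0507. Leaving out either sample of ME, AX or AX+ME ended both calls (limma adjusted p 0.0737 to 0.176), at differences between -0.72 and -0.89, whereas both held without either SED sample (0.0148 to 0.0329). Unc13c rests on 1 probe. In bulk tissue, fewer cells with a transcript and less of it per cell cannot be told apart. The summed signal of 6 microglial markers, all 6 well above background on every array, was lowest with astaxanthin and highest in SED: 33.2 and 33.1 in ME, 30.7 and 31.7 in AX and 31.2 and 31.3 in AX+ME samples, against 35.7 and 35.2 in SED samples. The single markers did not all share this order: 3 were higher and 3 lower than SED in ME, and 2 higher and 4 lower in AX and in AX+ME. None of those markers was called by limma in these comparisons (0, 2 and 2 of 6 at an unadjusted p under 0.05 in ME, AX and AX+ME), and their part in the Unc13c difference was not tested. The microglial list was singled out after the sums were seen. Summed excitatory neuron markers were instead lowest in SED within each dye, at 72.1 and 72.3 (1 of 8 saturated). They gave 86.4 and 74.8 in ME, 83.1 and 74 in AX and 78.1 and 78.9 in AX+ME samples. Inhibitory neuron markers were also lowest in SED within each dye, at 79.8 and 74.8 (1 of 8 saturated).

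Unc13a did not pass. Its signal was 0.229 and 0.225 in ME, 0.245 and 0.195 in AX and 0.255 and 0.230 in AX+ME samples, against 0.199 and 0.189 in SED samples. All ME and AX+ME values lay above both SED values, and AX replicate 2 lay between the SED values. The log2 differences from SED were 0.23 in ME, 0.18 in AX and 0.32 in AX+ME (limma adjusted p = 0.215, 0.286 and 0.0934). Before detrending they were -0.01, 0.0058 and 0.14. Unc13b read 5.04 and 4.88 in ME, 5.3 and 5.2 in AX and 5.16 and 4.79 in AX+ME samples, against 5.60 and 5.58 in SED samples, every treated sample below both SED samples. Its differences were -0.17, -0.09 and -0.17 (limma adjusted p = 0.149, 0.335 and 0.116), and they were negative in all 3 versions of the signal. Unc13b was singled out after its values were seen, as were Sv2a, Rims1, Pclo, Stx1a and Doc2a below.

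**Figure D3:**
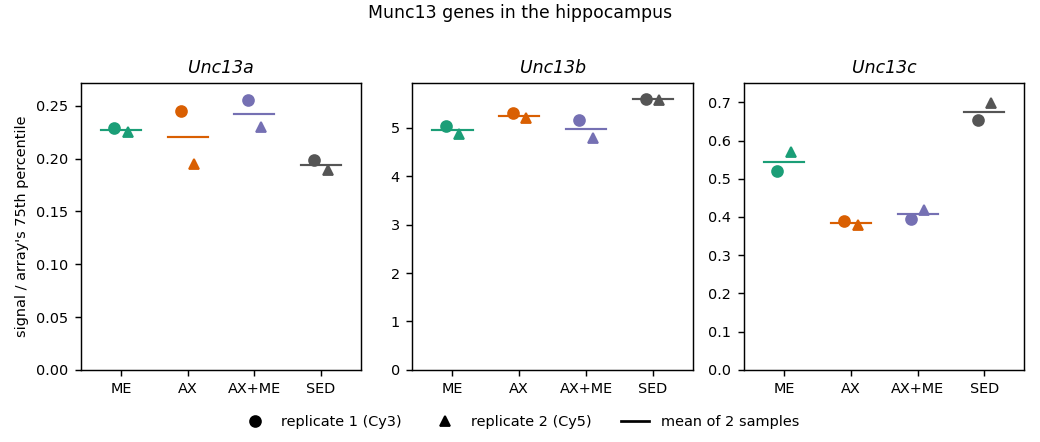
Signal over the array's 75th percentile (y) of Unc13a, Unc13b and Unc13c in ME, AX, AX+ME and SED samples (x), with replicate 1 (Cy3) as circles, replicate 2 (Cy5) as triangles and the mean of 2 as a bar. For Unc13c the AX and AX+ME samples lie between 0.378 and 0.418, below ME at 0.521 and 0.569 and SED at 0.654 and 0.698.

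Of the SNARE genes, the neuronal syntaxin Stx1a and the synaptobrevin Vamp1 could be followed, together with the SNAP adaptor Napa. Stx1a read 4.91 and 4.55 in AX+ME samples, against 4.51 and 3.99 in ME, 4.60 and 3.72 in AX and 4.18 and 3.88 in SED samples. Within each dye AX+ME was the highest of the 4 groups. Its log2 difference was 0.16 against ME, 0.19 against AX and 0.23 against SED (limma adjusted p = 0.637, 0.823 and 0.112), and the difference from SED was 0.03 before detrending. Vamp1 read 8.30 and 7.74 in AX+ME samples, against 7.5 and 6.9 in ME, 7.52 and 6.30 in AX and 6.78 and 7.14 in SED samples. It too was highest in AX+ME within each dye, by 0.16 over ME, 0.22 over AX and 0.21 over SED (limma adjusted p = 0.696, 0.850 and 0.204), the last being 0.11 before detrending. Napa differed from SED by -0.18, -0.19 and -0.23 on the log2 scale in ME, AX and AX+ME, with limma adjusted p-values of 0.338, 0.295 and 0.190. Within Cy3 these differences were -0.02, -0.08 and -0.07, and within Cy5 -0.34, -0.30 and -0.39. SED samples read 5.99 and 7.59, and treated samples 5.68 to 6.17, so the difference rests mainly on SED replicate 2.

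Synaptotagmins are vesicle and membrane proteins of which several bind calcium. Of the 7 that could be followed, 3 were lower and 4 higher than SED in each of ME, AX and AX+ME. Syt2, the fast calcium sensor of many inhibitory and brainstem terminals, was the lowest of them. It read 0.0753 and 0.0658 in ME, 0.0761 and 0.0817 in AX and 0.0717 and 0.0691 in AX+ME samples, against 0.117 and 0.0982 in SED samples, and both SED values lay above all 6 others. The log2 differences from SED were -0.61, -0.45 and -0.61, and only that of AX+ME passed (limma adjusted p = 0.0624, 0.0902 and 0.0471). The Syt2 spot lies in column 24, where detrending multiplied the signal by 0.989 to 1.00 in the treated groups, against 1.19 and 1.55 in SED replicates 1 and 2. Before detrending the differences were -0.19, -0.03 and -0.19, with limma adjusted p-values of 0.465, 0.909 and 0.465, and leaving out any 1 of the 8 samples also ended the call (0.0548 to 0.197). Centred within blocks, the Syt2 differences from SED were -0.35, -0.19 and -0.32. Against ME and AX, the AX+ME samples differed by 0.0011 and -0.16 from the processed signal.

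Syt3, a calcium-binding synaptotagmin with roles at pre- and postsynaptic membranes, was the highest of the synaptotagmins against SED. It read 4.63 and 4.93 in ME, 4.86 and 5.01 in AX and 4.92 and 5.2 in AX+ME samples, against 3.71 and 4.43 in SED samples, with both SED values below all others. The log2 differences of 0.23, 0.28 and 0.32 did not pass (limma adjusted p = 0.149, 0.103 and 0.0693). They were 0.019, 0.019 and 0.065 before detrending. A second Syt3 probe gave 0.17, 0.22 and 0.30 from the processed signal. Syt12 read 0.0859 and 0.0729 in ME, 0.0881 and 0.0716 in AX and 0.0784 and 0.0740 in AX+ME samples, against 0.0671 and 0.0777 in SED samples, so Cy3 and Cy5 pointed in opposite directions, and its fitted differences of 0.13, 0.14 and 0.08 were -0.09, -0.08 and -0.15 before detrending. Syt7, a slow calcium sensor for asynchronous release, and Syt17 were 0.05 to 0.21 above SED in log2 units from the processed signal. Before detrending Syt7 turned to -0.16, -0.05 and -0.0082 in ME, AX and AX+ME, and its second probe gave -0.13, 0.02 and -0.12 from the processed signal. Syt17 stayed above SED, at 0.04, 0.13 and 0.10. Syt4 and Syt9, both below column 70, differed from SED by -0.06 to -0.21, but Syt9 turned to 0.15, 0.10 and 0.22 before detrending. None of these 4 genes passed.

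Synapsins tether vesicles into the reserve pool. From the processed signal Syn2 and Syn3 differed by at most 0.10 on the log2 scale in any pairwise comparison, with unadjusted p-values of 0.229 or more. Before detrending Syn2 differed from SED by -0.13, -0.28 and -0.17 in ME, AX and AX+ME, and Syn3 by -0.05, -0.02 and 0.03. Of the vesicle membrane proteins, Sv2b lay between -0.03 and 0.04 across the 5 pairwise comparisons of the processed signal, and differed from SED by -0.19, -0.29 and -0.25 before detrending. The synaptogyrins Syngr1 and Syngr3 were 0.05 to 0.21 above SED without passing. For Syngr1 the dyes disagreed, with 0.35, 0.33 and 0.41 within Cy3 against -0.10, -0.17 and 0.01 within Cy5. Its SED samples read 5.97 and 7.62. Before detrending Syngr3 turned to -0.18, -0.13 and -0.06, while Syngr1 gave 0.17, 0.04 and 0.19. A second Syngr1 probe, in column 8, gave only 0.04, 0.01 and 0.03 from the processed signal. Sv2a, the binding site of levetiracetam, read 9.31 and 9.39 in ME, 9.43 and 8.86 in AX and 9.61 and 9.75 in AX+ME samples, against 11.1 and 12.7 in SED samples. Its differences of -0.34, -0.37 and -0.29 (limma adjusted p = 0.110, 0.0858 and 0.101) turned to 0.18, 0.21 and 0.29 before detrending. Centred within blocks they were -0.28, -0.32 and -0.23. The factor at its spot in column 22 was 1.04 to 1.13 in the treated groups, against 1.32 and 1.96 in SED. Sv2c read 0.0268 and 0.00874 in ME, 0.0192 and 0.0274 in AX and 0.0198 and 0.0309 in AX+ME samples, against 0.0201 and 0.0205 in SED samples. It was well above background on 6 of 8 arrays, its difference of AX+ME from ME was -0.44 within Cy3 and 1.82 within Cy5, and a second probe pointed the other way against SED in ME and AX.

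Of the 5 active zone scaffold genes that could be followed, limma called 0 in any comparison, and 2 had an unadjusted p under 0.05 in each of ME, AX and AX+ME against SED. Rims1, which encodes the scaffold RIM1 that recruits Munc13 and calcium channels, read 0.474 and 0.443 in ME, 0.450 and 0.430 in AX and 0.456 and 0.464 in AX+ME samples, against 0.523 and 0.605 in SED samples. Both SED values were the highest, and the log2 differences of -0.30, -0.35 and -0.29 did not pass (limma adjusted p = 0.155, 0.108 and 0.119). A second Rims1 probe in column 8 gave -0.31, -0.23 and -0.34. Without SED replicate 1, the lower SED sample, the differences of the used probe were -0.42, -0.48 and -0.42. Centred within blocks and with both SED samples kept, they were -0.12, -0.18 and -0.13 (limma adjusted p = 0.282, 0.151 and 0.196). Pclo, encoding piccolo, read 13.6 and 15.6 in ME, 13.6 and 16.0 in AX and 13.3 and 15.6 in AX+ME samples, against 15.9 and 17.2 in SED samples, lower in the treated samples within each dye. Its differences were -0.19, -0.17 and -0.20 (limma adjusted p = 0.152, 0.159 and 0.100). Before detrending they were -0.39, -0.45 and -0.47, and those of AX and AX+ME passed (limma adjusted p = 0.0604, 0.0400 and 0.0325). Of all 27176 genes, 2495 and 4327 passed there in AX and AX+ME, with medians of -0.12 and -0.11 over all genes. Of 3 further Pclo probes, that in column 75 gave -0.19, -0.12 and -0.22, that in column 49 gave 0.07, 0.13 and 0.05, and that in column 139 gave 0.01, -0.05 and 0.11. Bsn, encoding bassoon, and Rims2 differed from SED by -0.04 to 0.15, and by -0.18 to 0.01 before detrending.

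Rims3, a short RIM protein gene, had the highest fitted differences of the set in AX+ME, and they rest on 1 sample. It read 0.0419 and 0.0508 in ME, 0.0470 and 0.0342 in AX and 0.0440 and 0.128 in AX+ME samples, against 0.0504 and 0.0326 in SED samples. The fitted 0.89 of AX+ME against SED (limma adjusted p = 0.343) joined -0.20 within Cy3 and 1.97 within Cy5. AX+ME replicate 2 alone stood apart.

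**Figure D4:**
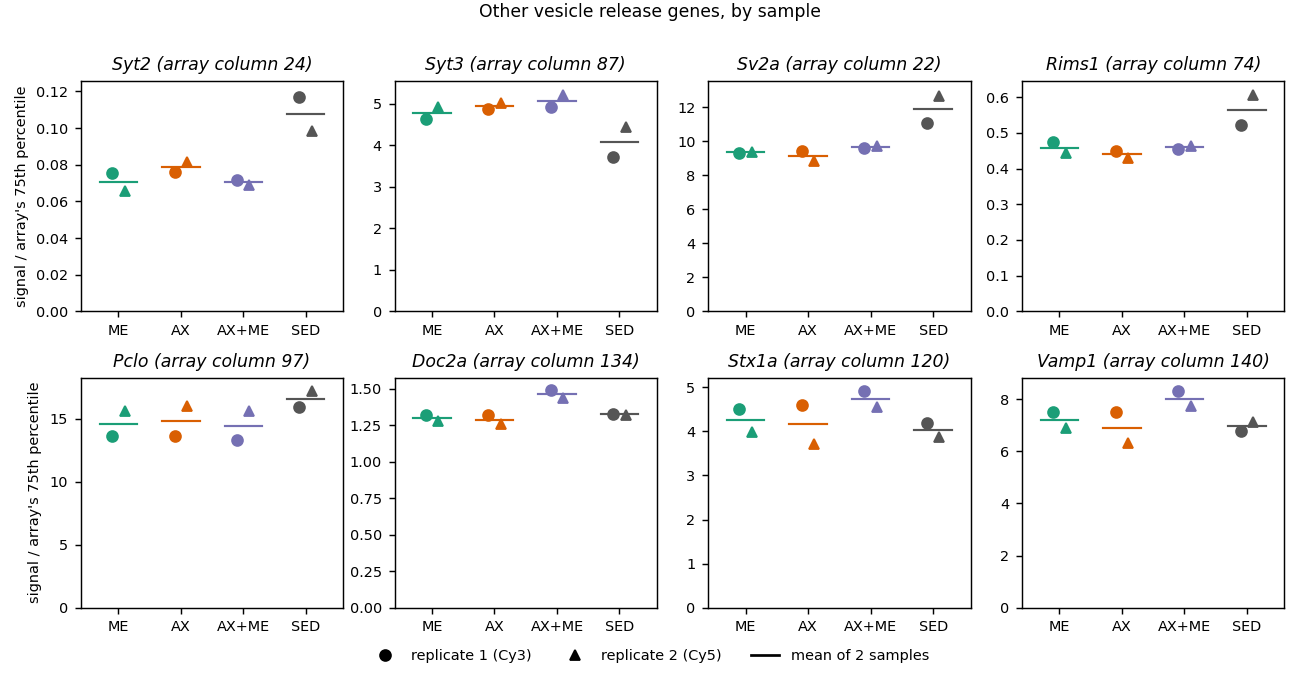
Signal over the array's 75th percentile (y) of 8 genes in ME, AX, AX+ME and SED samples (x), with replicate 1 (Cy3) as circles, replicate 2 (Cy5) as triangles and the mean of 2 as a bar. Syt2, Sv2a and Rims1 are highest in SED (Syt2 at 0.117 and 0.0982), Syt3 is lowest there (3.71 and 4.43), and Doc2a, Stx1a and Vamp1 are highest in AX+ME within each dye.

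Rabphilin (Rph3a), a Rab3 effector, and the Doc2 proteins, calcium sensors of spontaneous and asynchronous release, gave small differences. Rph3a read 3.73 and 3.77 in ME, 3.81 and 3.78 in AX and 3.94 and 4.11 in AX+ME samples, against 3.10 and 3.64 in SED samples, and its log2 differences of 0.16, 0.18 and 0.26 did not pass (limma adjusted p = 0.296, 0.240 and 0.108). They were -0.03, -0.08 and 0.02 before detrending. Doc2a read 1.49 and 1.44 in AX+ME samples, against 1.32 and 1.28 in ME, 1.32 and 1.26 in AX and 1.33 and 1.32 in SED samples. Both AX+ME values exceeded all 6 others, by 0.17 over ME, 0.18 over AX and 0.14 over SED on the log2 scale, none past the threshold (limma adjusted p = 0.522, 0.692 and 0.136). Before detrending the difference from SED turned to -0.04, beside a median of -0.11 over all genes, while those from ME and AX were 0.14 and 0.17. Doc2b read 7.38 and 7.61 in ME, 7.49 and 8.33 in AX and 7.18 and 7.61 in AX+ME samples, against 6.97 and 7.51 in SED samples, and its largest difference, 0.13 of AX against SED, was -0.07 before detrending.

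**Figure D5:**
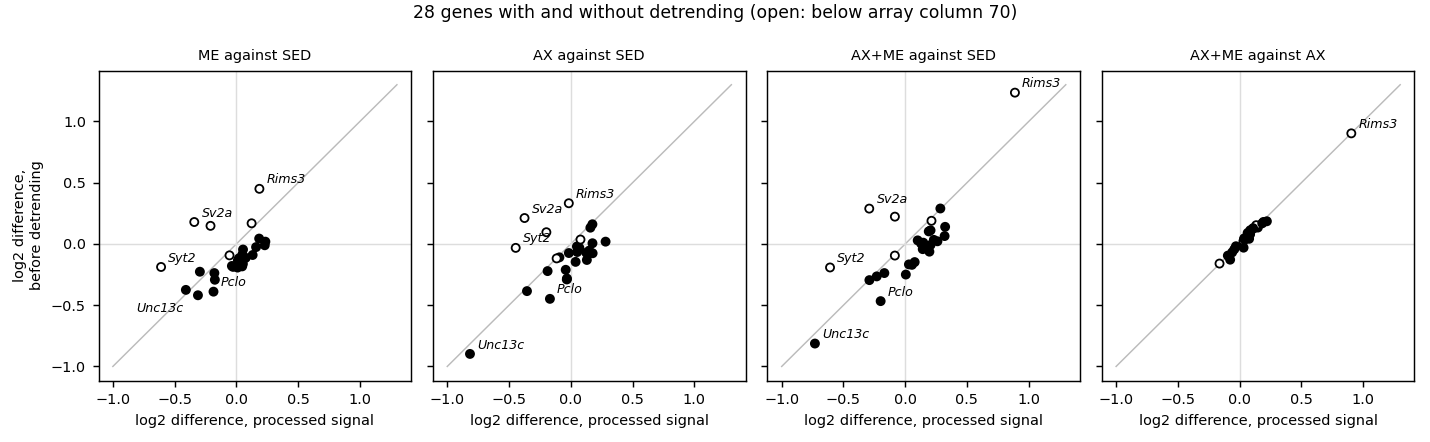
Log2 difference from signals before multiplicative detrending (y) against that from processed signals (x) for the 28 genes in 4 comparisons, with genes below array column 70 as open points and the line of equality in grey. Against SED the points leave the line, with Sv2a at -0.37 and 0.21 in AX, whereas in AX+ME against AX they follow it.

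The most abundant release proteins could not be compared. Snap25, Syt1, Syn1, Syp and Rab3a were saturated on all 8 arrays and each of 4 Cplx2 probes on at least 5, so no difference is given for them. Vamp2, Cplx1 and Nsf were saturated on all 6 ME, AX and AX+ME arrays and on neither SED array. Their spots lie in columns 11 to 16, and for Vamp2 and Cplx1 the saturated readings over the percentile (Vamp2 46.0 and 32.1 in ME, 40.2 and 30.0 in AX and 36.2 and 34.8 in AX+ME) lay below the detrended SED readings in the same dye (48.7 and 35.2 in SED), so no fold can be given. Nsf read 44.4 and 30.4 in ME, 37.8 and 29.5 in AX and 34.8 and 33.2 in AX+ME samples, against 30.9 and 56.5 in SED samples, 2 SED values too far apart to use. Syt11 was saturated in ME replicate 2 and AX replicate 2 only.

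Of 43 further exocytosis and active zone genes, 41 were unsaturated, and limma called 2 higher and 2 lower in ME, 2 higher and 3 lower in AX, and 2 higher and 3 lower in AX+ME, each against SED, where 3.00%, 3.56% and 6.92% of all genes were called in either direction. An unadjusted p under 0.05 was met by 17, 19 and 22 of the 41, beside 24.3%, 26.5% and 32.1% of all genes. Snap29, encoding a SNARE protein of membrane trafficking, and Rab3c, encoding a Rab3 isoform, were the higher ones, by 0.63, 0.72 and 0.72 for Snap29 and 0.67, 0.81 and 0.78 for Rab3c (limma adjusted p = 0.0177 to 0.0418). Napb, the beta SNAP adaptor, and Syt6 were the lower ones, with log2 differences of -0.51, -0.51 and -0.46 for Napb and -0.78, -0.88 and -0.81 for Syt6 (limma adjusted p = 0.0206 to 0.0285). These 4 spots lie below column 70. Before detrending Napb turned to 0.15, 0.19 and 0.23, and Syt6 shrank to -0.14, -0.23 and -0.16. Centred within blocks, Napb stayed at -0.60, -0.63 and -0.62 and Syt6 at -0.63, -0.75 and -0.69. Before detrending Snap29 grew to 1.2, 1.33 and 1.33, and Rab3c was at 0.87, 0.93 and 0.92. Centred within blocks, Snap29 was at 0.63, 0.68 and 0.70 and Rab3c at 0.56, 0.71 and 0.67.

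Cplx3 and Cask were called from column 70 or higher. Cplx3, encoding a complexin best known from retinal ribbon synapses, read 0.301 and 0.273 in AX samples, against 0.328 and 0.299 in ME, 0.386 and 0.379 in AX+ME and 0.408 and 0.383 in SED samples. AX was the lowest group within each dye, with a log2 difference of -0.47 from SED (limma adjusted p = 0.0351), and AX+ME lay 0.42 above AX (limma adjusted p = 0.400). The interaction of 0.75 narrowly missed the threshold (limma adjusted p = 0.0585). Before detrending the AX difference was -0.74 and the interaction 0.98. Cask, a presynaptic scaffold kinase, read 3.72 and 3.8 in AX+ME samples, against 3.88 and 3.91 in ME, 3.72 and 3.95 in AX and 4.62 and 4.68 in SED samples, and AX+ME differed from SED by -0.31 (limma adjusted p = 0.0452). Neither passed among genes from column 70 on alone, where 0 genes of the list were called in any of the 8 comparisons.

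Of 21 unsaturated vesicle transporter and other vesicle protein genes and 9 unsaturated proton pump genes, limma called 0 in every comparison, with 5, 5 and 10 of the transporter list and 0, 2 and 3 of the pump genes at an unadjusted p under 0.05 in ME, AX and AX+ME against SED, where 24.3%, 26.5% and 32.1% of all genes had one. Of 24 unsaturated endocytosis genes, Ston2, the clathrin adaptor stonin 2, was higher in AX by 0.61 and in AX+ME by 0.57 against SED (limma adjusted p = 0.0489 and 0.0438), with its spot in column 41. Before detrending these differences were 1.08 and 1.04, and centred within blocks 0.44 and 0.40. Markers of neighbouring tissue also differed between groups. Of 7 unsaturated choroid plexus markers, limma called 5 lower in ME, 0 in AX and 7 lower in AX+ME against SED (1.08%, 1.40% and 3.19% of all genes were called lower). Their median log2 differences were -0.50, -0.15 and -0.60. The summed signal of all 8, which includes 1 saturated marker, was 54.4 and 44.9 in ME, 57.9 and 49.4 in AX and 49.0 and 47.0 in AX+ME samples, against 64.5 and 49.2 in SED samples. Of 5 pituitary markers with a kept probe, limma called 4 lower in ME, 1 lower in AX, and 1 higher and 1 lower in AX+ME, with sums of 0.733 and 0.753 in ME, 1.17 and 1.12 in AX and 1.12 and 1.11 in AX+ME samples, against 1.5 and 1.45 in SED samples. Only 2 of the 5 were well above background on every array. Against SED, 1 was higher and 4 lower in ME, 4 higher and 1 lower in AX, and 3 higher and 2 lower in AX+ME. In AX and AX+ME the lower sums thus ran against most of the markers (median log2 differences 0.14 and 0.52). The 5 endothelial markers summed to 13.8 and 12.2 in ME, 14.2 and 12.3 in AX and 14.0 and 12.6 in AX+ME samples, against 16.4 and 15.2 in SED samples, with 0, 0 and 1 called, that 1 lower. Marker by marker, 1 was higher and 4 lower than SED in ME and in AX, but 3 were higher and 2 lower in AX+ME. Their median log2 differences were -0.17, -0.07 and 0.0016 in ME, AX and AX+ME. The part of these markers in the differences of vesicle genes was not tested.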

How the data were processed

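The deposited scanner files hold linear spot intensities. The submitters' processing notes name Agilent Feature Extraction, version 11.0.1.1. Signals had been background-subtracted and multiplicatively detrended per the file headers. A second deposited list of intensities for all arrays stayed within 0.5 of the processed signal. RNA came from the hippocampus (RNeasy Mini kit, per the labels' protocols). Control spots (3671 per array) and non-uniform spots were left out, spots of a probe were averaged (55681 probes, 26582 with a symbol through RefSeq accessions), and each signal over its array's 75th percentile was put on a log2 scale with a floor of 0.002. A probe was kept if, in 1 or more groups, both samples read well above background (37429), which all 38 matched genes passed. Of a gene's probes the brightest unsaturated one was used.

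limma 3.58.1 in R 4.3.3 fitted all 8 samples with a term per group and one for dye (3 residual and 1.52 prior degrees of freedom), with two-sided p-values adjusted by Benjamini-Hochberg over all 27176 genes and transcripts and a threshold of 0.05. The fit was tested on simulated data. Replicate numbers coincide with dye, so the dye term is also the replicate block, and both within-dye differences were computed. Nothing pairs the samples otherwise. Genes given by sample were those past the threshold, those 1.25-fold apart in 1 direction within each dye, and the 2 highest and 2 lowest of each pairwise comparison. The normexp alternative (offset 50) took median spot signals, since mean spot signals were not used here. The 39 genes, the lists and the rules were chosen with earlier results of these data known. Probe sequences were not used here.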

Additional observations from a re-analysis of the deposited data

How the results depend on the processing

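Besides 20 planned settings, 3 were chosen after seeing the data. Counts of the 28 genes called moved under these settings, and so did counts over all genes where given here. Of 27176 genes, 816, 968 and 1880 were called in ME, AX and AX+ME against SED. Before detrending these counts were 1397, 2495 and 4327, and centred within blocks 554, 609 and 1105. From column 70 on they were 0, 0 and 3 of 17771. For astaxanthin averaged over activity 225 genes were called, against 3 centred within blocks and 0 from column 70 on. In ME against SED (0 called), normexp gave 2 and the filter on all 8 arrays or an intensity trend 1. In AX against SED (1), normexp, the trend and signals before detrending gave 2, and column 70 on gave 0. In AX+ME against SED (2), no filter, the mean of probes and block centring gave 1, and column 70 on 0, while the trend gave 3, the added gene being Syt3, higher. For astaxanthin averaged over activity (1), no filter, column 70 on and block centring gave 0. Without the dye term, that is with no replicate block, AX+ME against SED had 1 call and no other count changed. Medians of the 28 genes moved to -0.13 in ME against SED under normexp and before detrending, to -0.073 before detrending and 0.11 within Cy3 in AX, and to -0.020, -0.0025 and 0.017 under normexp, before detrending and within Cy5 in AX+ME. The interaction median moved to 0.18 under normexp and before detrending and to -0.015 within Cy3, and that of running averaged over diets to -0.046 under normexp.

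Leaving out 1 sample gave 0 to 2 calls in ME, 0 to 4 in AX and 0 to 4 in AX+ME against SED, 0 in AX+ME against ME or AX and for running averaged over diets, 0 to 1 for the interaction and 0 to 1 for astaxanthin. Without SED replicate 1, the differences from SED were -0.48 for Sv2a, -0.48 for Rims1 and -0.33 for Napa in AX. In AX+ME they were -0.40, -0.42 and -0.37. These rest on SED replicate 2, the higher SED sample for each of these genes. Without SED replicate 2, the AX+ME differences were 0.41 for Syt3 and 0.44 for Syngr1, resting on the lower SED sample for both genes. The medians ranged from -0.06 to 0.06 in ME, -0.048 to 0.092 in AX and 0.036 to 0.20 in AX+ME against SED, 0.02 to 0.10 in AX+ME against ME, 0.01 to 0.12 in AX+ME against AX, 0.03 to 0.15 for the interaction, 0.02 to 0.08 for running and 0.02 to 0.10 for astaxanthin. The cause of these shifts was not tested. Signals near background limit Sv2c and Rims3.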
